A study of Mus musculus with 8 samples.

Results

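The late subjective night of the mouse suprachiasmatic nucleus (SCN), the paired hypothalamic nucleus that acts as the master circadian clock, is described here from 2 RNA libraries at circadian time 22 (CT22), of 8 libraries in all. Circadian time counts hours from subjective dawn in animals kept in darkness, so CT22 lies shortly before the next subjective day. The 2 libraries were taken by their titles, at 22 h and 46 h, and set against the other 6, which held CT4 and CT10 of the subjective day and CT16 of the early subjective night, with 2 libraries each. A gene was called above when both CT22 libraries exceeded all other 6, and below when both lay under all other 6. Of 15217 tested genes, 462 were above (3.04%) and 413 were below (2.71%). Among them were genes for G-protein-coupled receptors of the SCN, which stood above, and clock genes such as Per2 and Gm129, which stood below. If every order of the 8 libraries were equally likely, the expected share in each class would be slightly larger than these 3.04% and 2.71%. The counts therefore do not exceed a random order, and being in a class does not by itself mark a gene as changed at CT22. No formal test of the counts was run.

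The circadian clock of a cell is a transcriptional feedback loop: the proteins of Arntl (BMAL1) with Clock or Npas2 activate the Per and Cry genes, the Nr1d genes and the D-box factors Dbp, Tef and Hlf through E-box elements, and the PER and CRY proteins then repress that activation. SCN neurons are kept in step by peptides, among them VIP, acting on the receptor encoded by Vipr2, vasopressin, acting on Avpr1a, and prokineticin 2, acting on Prokr2. Late in the subjective night Per transcripts are known to be near their trough, and light reaching the SCN at that phase advances the clock.

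Each library was made from polyadenylated RNA pooled in equal amounts from 3 C57/BL6 mice of unstated age, entrained to 12 h of light and 12 h of dark for 3 weeks and then moved to darkness. No genotype or drug separated the groups, and the labels name no dissection method. Because a pool is 1 value, every p-value measures the spread between pools and not between mice. The protocol gives CT18 as the start of collection whereas the first title is CT22, and all times here follow the titles. Libraries collected from 22 to 40 h form a first cycle, and those from 46 to 64 h a second. Libraries of the same time come from different cycles. In fits without a term for cycle, the spread between pools thus includes any difference between cycles, and the parts cannot be told apart. Levels are counts of reads on the sense strand of genes, scaled to a common library total (CPM), in the order first cycle, then second cycle.

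The libraries held 11123610 to 11131890 gene reads. Defining SCN genes were present in every library (Six6 30.7 CPM or more, Vip 189 CPM or more). The summed level of 8 SCN neuron markers was 1214 CPM in the first CT22 library and 1519 CPM in the second, against 941 to 1282 CPM in the others, so the second CT22 library was the highest of all. The summed level of 12 oligodendrocyte markers was 10410 to 10550 at CT22 and 5112 to 15980 in the other 6 libraries (CPM), and that of 10 astrocyte markers 4178 to 4797 at CT22 and 3878 to 4865 in the other 6 libraries. The first CT22 library also held 1040 reads of the pituitary hormone gene Gh and 244 of Prl, of which the second held 0, and the other 6 at most 33 and 15.

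Most genes that stood apart at CT22 did so by a small margin. The median fold of CT22 over the mean of the other times was 1.26 among the 462 genes above (range 1.05 to 6.96) and 0.817 among the 413 below (range 0.0862 to 0.955), against 1.01 over all tested genes. With a mean of at least 5 CPM, 348 genes were above and 332 below, and 26 of these were at least 1.5-fold higher and 18 at least 1.5-fold lower. A gap of at least 1.2-fold between the nearest CT22 library and the nearest other library was left for 50 genes above and 36 below, or 12 and 9 with a mean of at least 5 CPM. At the edge of the criterion lay Anp32a (nearest CT22 library and nearest other library both 226.8 CPM) and, just outside, Mapk8 (88.6 CPM at CT22). On the lower side Rpl7 (340.9 CPM at CT22) was just inside and Sidt1 (23.4 CPM in both) just outside.

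By edgeR's quasi-likelihood test of CT22 against the mean of the other times, 0 genes were higher (0%) and 0 lower (0%) at a Benjamini-Hochberg adjusted p of 0.05. At an unadjusted p under 0.05 there were 727 genes (4.78%), 466 higher (3.06%) and 261 lower (1.72%). DESeq2's Wald test on the same genes called 12 higher and 2 lower, and edgeR without the filter on low counts called 77 and 7, of which 1 lay below the filter. The time whose mean lay nearest to CT22 was CT16 for 202 of the 462 genes above (43.7%) and for 180 of the 413 below (43.6%), while CT4 was nearest for 142 and 133 and CT10 for 118 and 100.

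**Figure D1:**
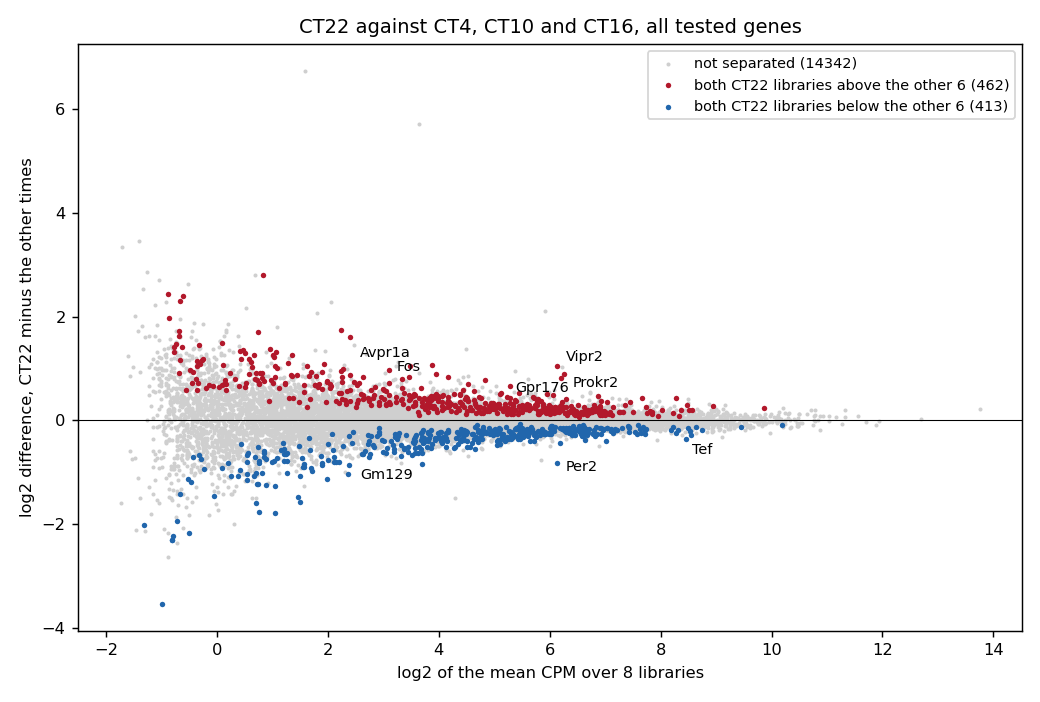
Each point is 1 of the 15217 tested genes, by the log2 of its mean CPM (x axis) and the log2 difference of CT22 minus the mean of CT4, CT10 and CT16 (y axis). Red marks the 462 genes with both CT22 libraries above the other 6, blue the 413 with both below, and at a high mean level the coloured genes lie close to the zero line except for a few such as Vipr2, Prokr2, Per2 and Tef.

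Among receptors of the SCN, 4 genes stood above at CT22: Vipr2, Prokr2, Avpr1a and Gpr176. Vipr2 (mm9 chr12:117316180-117384946), the VIP receptor, was at 83.4 and 144 CPM at CT22, 52.8 and 53.1 at CT4, 41.3 and 46.1 at CT10, and 77.8 and 64.6 at CT16. All 6 other libraries lay under both CT22 libraries, with the first-cycle CT16 library closest, and the second CT22 library was far above the first. The log2 difference was 1.05 ± 0.15 (SE; edgeR adjusted p = 0.0503), about 2.07-fold. Prokr2 (mm9 chr2:132163144-132211202), the receptor of prokineticin 2, was at 94.5 and 138 CPM at CT22, 59.5 and 67 at CT4, 56.8 and 58.5 at CT10, and 76 and 60.6 at CT16. Its lowest CT22 library was 1.24-fold over its highest other library, again that of CT16. The log2 difference was 0.89 ± 0.13 (SE; edgeR adjusted p = 0.0503).

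Both genes passed an adjusted p of 0.05 by DESeq2 (7.36e-06 for Vipr2 and 2.09e-05 for Prokr2) and with the cycle as a term in edgeR (0.028 and 0.0302). Their size rested largely on the second CT22 library. Without it the log2 differences were 0.61 (adjusted p = 0.245) and 0.59 (0.275) by edgeR, and without the first they were 1.38 (0.000235) and 1.13 (0.00283). Over 15 alternatives the adjusted p ranged from 3e-17 to 0.492 for Vipr2 and from 2.78e-12 to 0.275 for Prokr2. The lowest values came without the filter on low counts, where the genes that share the estimate of spread include those near 0, and the log2 differences there were 1.05 and 0.88. The SCN neuron markers were highest in that same second library, and their part in the 2 differences was not tested. In such bulk pools, more cells of a type and more RNA per cell cannot be told apart.

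Avpr1a, which encodes the V1a vasopressin receptor, was at 21.2 and 25.7 CPM at CT22, 7.99 and 7.74 at CT4, 10.5 and 10.9 at CT10, and 20.6 and 12.3 at CT16. The first-cycle CT16 library came within 1.03-fold of the lower CT22 library, while both CT4 libraries were the lowest of the 8. The log2 difference from the other times was 1.07 ± 0.19 (SE; edgeR adjusted p = 0.144; DESeq2 adjusted p = 0.00829), and it was 1.2 and 0.93 without the first and the second CT22 library (adjusted p from 9.68e-06 to 0.999 over all alternatives). Gpr176, an orphan G-protein-coupled receptor, was at 44.8 and 48.9 CPM at CT22, 33.4 and 35 at CT4, 31.2 and 35 at CT10, and 39.6 and 31.9 at CT16. Here the CT22 libraries agreed closely and the other 6 spanned 31.2 to 39.6 CPM, with a log2 difference of 0.45 ± 0.12 (SE; adjusted p = 0.719). Gpr176 overlaps 1700054M17Rik in the authors' coordinates.

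**Figure D2:**
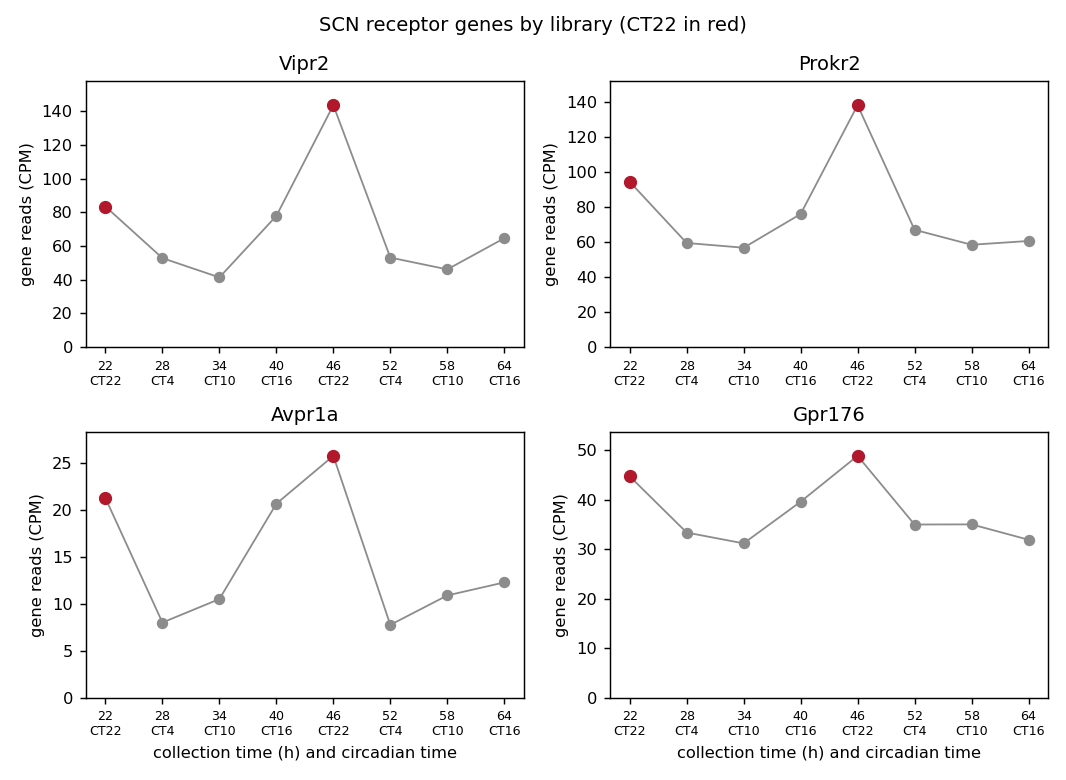
CPM of Vipr2, Prokr2, Avpr1a and Gpr176 (y axes, from 0) in each of the 8 libraries, by hour of collection and circadian time (x axes). Red points are the CT22 libraries at 22 h and 46 h, and in each panel both lie above all grey points.

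The peptides that act on these receptors did not stand apart. Of 18 tested genes in the list of SCN peptides and receptors, the 4 receptors were above (462 of 15217 in all, 3.04%) and 0 were below, 11 were higher by sign (52.8% of all tested genes), and the median log2 difference was 0.29 against 0.01 over all genes. With CT22 and the other 6 libraries as 2 plain groups that median was 0.12. Vip was at 232 and 375 CPM at CT22, 189 and 266 at CT4, 243 and 249 at CT10, and 238 and 222 at CT16, and the first CT22 library lay among the others. Avp was at 49.9 and 37 CPM at CT22, 37.8 and 54.3 at CT4, 51.3 and 52.8 at CT10, and 12.8 and 22.4 at CT16, lowest at CT16. Prok2, the ligand of Prokr2, was at 3.85 and 0.909 CPM at CT22, 9.69 and 12.4 at CT4, 2.31 and 3.23 at CT10, and 1.64 and 5.37 at CT16, high at CT4 alone. These 3 ligands were named after their values were seen.

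Genes of the SCN identity list were mostly higher by sign at CT22, with overlap between groups. That list shares Lhx2 and Rax with the tanycyte markers, so it is not one of SCN neurons alone. In the list of 14 tested SCN identity genes, mostly transcription factors, 12 were higher (52.8% of all tested genes). Of the 14, 0 were above all other libraries and 0 below (3.04% and 2.71% of all genes), and the median log2 difference was 0.32. Lhx1, a LIM homeobox factor of the SCN, was at 48.9 and 80.4 CPM at CT22, 24 and 37.1 at CT4, 29.3 and 34.2 at CT10, and 49.5 and 28.4 at CT16 (0.95 ± 0.21 on the log2 scale, edgeR adjusted p = 0.36), so that the first CT22 library lay just under the highest CT16 library. Rasd1, a small GTPase, was at 63.5 and 96.3 CPM at CT22, 35.9 and 33.9 at CT4, 56.3 and 59.4 at CT10, and 93.5 and 69.7 at CT16, high at CT16 and CT22 and low at CT4. Six6 was at 50.7 and 86.3 CPM at CT22, 51.7 and 64.6 at CT4, 52 and 41.5 at CT10, and 47.5 and 30.7 at CT16 and stood out in the second CT22 library alone. Without that library the median of the list was 0.24, and without the first it was 0.43.

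Clock genes mostly lay lower at CT22. Of 20 tested core clock genes, 4 were below at CT22 (Per2, Gm129, Tef and Nr1d2; 2.71% of all genes were below) and 1 was above (Npas2; 3.04% of all genes were above). By sign 15 of the 20 were lower (47.2% of all tested genes), and the median log2 difference was -0.18. Per2 (mm9 chr1:93312358-93355922), a repressor of the loop, was at 47 and 40.3 CPM at CT22, 67.9 and 87.4 at CT4, 88 and 114 at CT10, and 59.3 and 58.9 at CT16. Both CT22 libraries lay under both CT16 libraries, which in turn lay under the 4 libraries of the subjective day. The log2 difference was -0.83 ± 0.14 (SE; edgeR adjusted p = 0.114), and DESeq2 gave an adjusted p of 8.56e-05 (-0.95 and -0.72 without the first and the second CT22 library, with adjusted p from 5.82e-08 to 0.999 over all alternatives).

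Gm129 (now named Ciart or Chrono; mm9 chr3:95682362-95686230), a repressor of BMAL1-driven transcription, was at 8.05 and 7.36 CPM at CT22, 13.1 and 14.9 at CT4, 21.1 and 20.8 at CT10, and 8.85 and 8.85 at CT16. Its CT16 libraries were only slightly above those of CT22, and CT10 was the highest time (log2 difference -0.83 ± 0.19, edgeR adjusted p = 0.375). Its span overlaps that of C920021L13Rik in the authors' coordinates. Tef, a D-box activator, was at 288 and 294 CPM at CT22, 372 and 368 at CT4, 400.4 and 423 at CT10, and 356 and 318 at CT16. Nr1d2, which encodes REV-ERB beta, was at 173 and 194 CPM at CT22, 232 and 258 at CT4, 210.0 and 222 at CT10, and 201 and 197 at CT16, and its higher CT22 library was within 1.01-fold of the lowest CT16 library. Their log2 differences were -0.35 ± 0.09 and -0.26 ± 0.09, with edgeR adjusted p of 0.559 and 0.977, so neither passed the test over all genes.

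Npas2, a partner of BMAL1, was the clock gene above, at 17 and 17.4 CPM at CT22, 12.3 and 8.19 at CT4, 8.26 and 11.1 at CT10, and 14.2 and 13.3 at CT16. Its CT22 libraries nearly coincided and CT16 came next (log2 difference 0.63 ± 0.19, adjusted p = 0.842). Arntl, which encodes BMAL1, was at 48.7 and 60.7 CPM at CT22, 45 and 39.4 at CT4, 32.6 and 36.9 at CT10, and 50.01 and 40.9 at CT16 and missed the criterion through the first-cycle CT16 library. Dbp was at 38.8 and 32 CPM at CT22, 66.5 and 77.1 at CT4, 92.9 and 79.9 at CT10, and 32.4 and 38.5 at CT16, where CT22 and CT16 overlapped. Per1 was at 49.9 and 45.3 CPM at CT22, 77.2 and 86.7 at CT4, 74.8 and 97.7 at CT10, and 41.5 and 42.2 at CT16, and both CT16 libraries were lower than both CT22 libraries. Per1 and Per2 therefore differed in which night time was lowest in these libraries. Arntl2, a paralog of Arntl and listed among clock modifiers, was below at 7.61 and 7.81 CPM against 9.27 to 12 CPM.

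**Figure D3:**
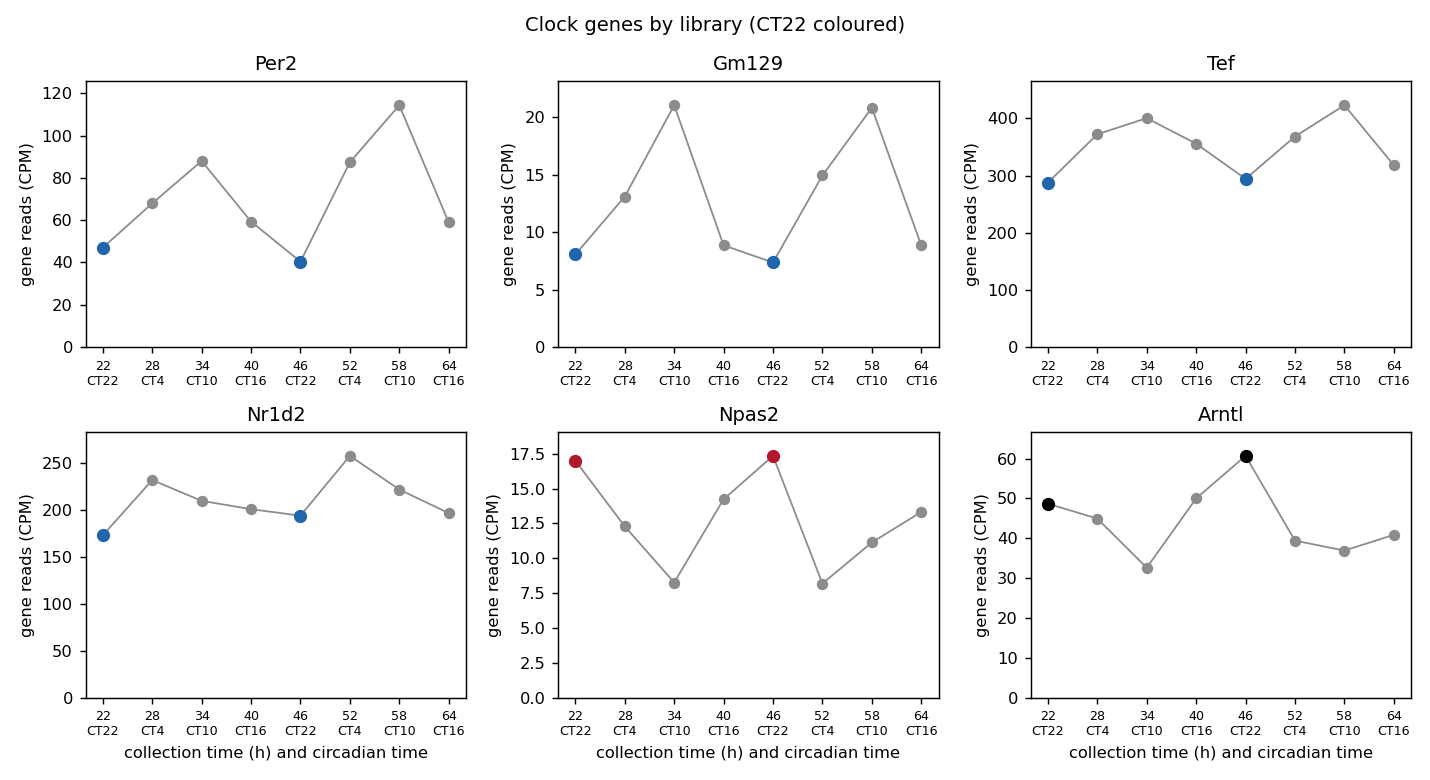
CPM of Per2, Gm129, Tef, Nr1d2, Npas2 and Arntl (y axes, from 0) in each library by hour of collection and circadian time (x axes). Blue CT22 points lie under all other points for Per2, Gm129, Tef and Nr1d2, red CT22 points lie over all others for Npas2, and the black CT22 points of Arntl overlap the others.

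The start regions of these clock genes are shown because the E-box, CACGTG, is the element through which BMAL1 acts. The stretches end at the base before the RefSeq start site, run 5′ to 3′ on the strand of the gene, and carry each CACGTG in capitals. Build GRCm38.p6 was used for them, which differs from the mm9 of the counts. Of the 4 clock genes below, Per2 had no entry, and CACGTG was found 3 times for Gm129, 1 time in each of 2 promoters of Tef, and 0 times for Nr1d2. Ldha, the glycolytic gene below, held 2 matches in the stretch shown, from the first of its 2 promoters, and 0 in that of the second. The sequences lie at chr3:95882229-95882358 (minus strand), chr15:81802523-81802672 (plus strand), chr15:81811264-81811413 (plus strand) and chr7:46845654-46845803 (plus strand).
Gm129: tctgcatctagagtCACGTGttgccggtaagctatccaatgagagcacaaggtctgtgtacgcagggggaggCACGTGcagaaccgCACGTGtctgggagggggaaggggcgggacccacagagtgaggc
Tef first promoter: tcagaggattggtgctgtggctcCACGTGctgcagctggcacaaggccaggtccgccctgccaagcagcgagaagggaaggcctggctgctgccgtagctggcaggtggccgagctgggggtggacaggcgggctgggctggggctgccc
Tef second promoter: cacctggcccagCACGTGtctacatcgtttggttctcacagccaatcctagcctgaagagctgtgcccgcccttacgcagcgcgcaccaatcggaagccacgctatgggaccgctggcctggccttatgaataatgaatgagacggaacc
Ldha: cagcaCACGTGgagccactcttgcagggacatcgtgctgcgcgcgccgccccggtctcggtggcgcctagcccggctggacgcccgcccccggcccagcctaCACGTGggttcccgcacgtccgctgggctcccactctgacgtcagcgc
The matches of Gm129 began 116, 58 and 44 bases before its start site, those of Tef 127 and 138 bases before, and those of Ldha 145 and 48 bases before.

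CACGTG, which reads the same on both strands, lay near a similar share of genes in each class. In windows of 250 bases before to 50 after the RefSeq start, it occurred for 42 of 315 genes below (13.3%), 32 of 339 above (9.44%) and 1319 of 11689 tested genes with an entry (11.3%), and in 7.15% of all 32851 windows. Among named genes it also lay near the clock genes Per1, Cry1 and Bhlhe41, which did not stand apart. Hsd17b7 and Hnrnpd, which were above, held it too. The D-box TTANGTAA, searched on both strands, occurred for 14 genes above (4.13%), 7 below (2.22%) and 1.84% of tested genes (2.32% of all windows). TAGGTCA, a core binding element of ROR and REV-ERB proteins, occurred for 0.885%, 1.9% and 2.15% of these classes, and the CRE TGACGTCA for 2.06%, 2.86% and 3.43%. In all windows their shares were 2.61% and 1.79%. The heat shock element core TTCNNGAA occurred for 7.96% of genes above, 4.76% below and 8.15% of tested genes (8.52% of all windows). A match is a description of letters and not of binding, and these shares were not tested.

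The 4 receptor genes above held 0 matches to CACGTG in their windows, and no match to the other elements searched. The stretches before the start sites of Vipr2, chr12:116077606-116077725 (plus strand), and Prokr2, chr2:132385448-132385567 (minus strand), are shown with each CG in capitals, since these genes led the list and the richness of CG differed between their windows (18 and 12 in 300 bases, against medians of 22 for genes above, 19 below and 20 for all tested genes).
Vipr2: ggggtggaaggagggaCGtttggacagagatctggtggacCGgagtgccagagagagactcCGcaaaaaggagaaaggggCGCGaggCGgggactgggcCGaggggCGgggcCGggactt
Prokr2: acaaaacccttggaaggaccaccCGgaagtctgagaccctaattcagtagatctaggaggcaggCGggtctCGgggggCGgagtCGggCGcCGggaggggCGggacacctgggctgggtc
Both stretches belong to GRCm38.p6 and end at the base before the start site.

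Set against single times, CT22 gave few calls. The 3 contrasts share the CT22 libraries, so they are only set side by side. Against CT10, edgeR called 7 genes higher (0.046%) and 6 lower (0.0394%) of 15217, against CT16 1 higher (0.00657%) and 0 lower (0%), and against CT4 0 higher (0%) and 1 lower (0.00657%). At an unadjusted p under 0.05 there were 1448 genes against CT10, 543 against CT16 and 1093 against CT4. DESeq2 called 77 higher and 22 lower against CT10, 3 and 0 against CT16, and 14 and 6 against CT4. Which time gave the most calls depended on the libraries: without the second CT4 library edgeR called 20 higher and 2 lower against CT4 and 5 and 6 against CT10, and without the second CT22 library 14 and 2 against CT4 and 5 and 2 against CT10. The genes called by edgeR are named below because they are few, after their values were seen.

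The genes lower at CT22 than at CT10 were Dbp (log2 difference -1.29 ± 0.15 SE, adjusted p = 0.00642), Rbm3, Per2 (-1.21 ± 0.16 SE, adjusted p = 0.00915), Gm129 (-1.44 ± 0.22 SE, adjusted p = 0.0212), Pllp and Per1. All of them except Rbm3 and Pllp are clock genes. Rbm3, a cold-inducible RNA-binding protein, was at 98.7 and 106 CPM at CT22, 110.0 and 121 at CT4, 184 and 204 at CT10, and 108 and 110.0 at CT16, high at CT10 alone, with a difference of -0.92 ± 0.11 SE, adjusted p = 0.00642. Cirbp, another cold-inducible RNA-binding gene, was at 130.4 and 139 CPM at CT22 and 181 and 215 CPM at CT10 without passing. Pllp, a myelin protein gene, was at 35.4 and 31.4 CPM at CT22, 25.1 and 36 at CT4, 78.3 and 69.9 at CT10, and 27.8 and 36.7 at CT16. The summed oligodendrocyte markers were 15330 and 13130 CPM at CT10 and 10410 and 10550 CPM at CT22, and their part in the Pllp difference was not tested.

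The genes higher at CT22 than at CT10 were Vipr2 (log2 difference 1.38 ± 0.20 SE, adjusted p = 0.0194), Prokr2 (1.01 ± 0.17 SE, adjusted p = 0.0397), the chaperone genes Hsph1 and Chordc1, B3gat2, which encodes a glucuronosyltransferase, Pkib, an inhibitor of protein kinase A, and Tmem51. Hsph1 was at 556 and 517 CPM at CT22, 458 and 406 at CT4, 329 and 269.9 at CT10, and 595 and 625 at CT16 and Chordc1 at 143 and 138 CPM at CT22, 98.2 and 123 at CT4, 86.6 and 73.5 at CT10, and 174 and 189 at CT16. Both genes were higher in both CT16 libraries, so that CT22 lay between CT16 and the subjective day. Pkib was at 54.1 and 86.9 CPM at CT22, 39.2 and 48.6 at CT4, 27.5 and 33.1 at CT10, and 56.3 and 44.4 at CT16, and 1 CT16 library exceeded the lower CT22 library. Tmem51 alone of these 5 was above all other libraries, at 15.1 and 20.2 CPM at CT22, 14.2 and 12.1 at CT4, 6.93 and 4.85 at CT10, and 9.13 and 6.8 at CT16 (1.58 ± 0.27 SE, adjusted p = 0.0447). Against CT10, 0 genes were higher and 3 lower without the first CT10 library, 1 and 2 without the second, and 5 and 2 without either CT22 library. The count of higher genes was 2 and 3 without the first and the second CT16 library.

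Against CT16, 6 h earlier, the gene called was Rgs16, a regulator of G-protein signalling that is rhythmic in the SCN. Rgs16 was at 152 and 203 CPM at CT22, 268 and 304 at CT4, 137 and 148 at CT10, and 80.3 and 81.9 at CT16, so CT22 was 2.19-fold above CT16 (1.13 ± 0.14 SE, adjusted p = 0.0118) and below CT4. Against CT4, 6 h later, the gene called was Rasl11b, a Ras-like GTPase, at 20.4 and 21.6 CPM at CT22, 53.9 and 64.6 at CT4, 24.4 and 22.7 at CT10, and 12.7 and 10.1 at CT16 (-1.5 ± 0.17 SE, adjusted p = 0.00434). Rgs16 and Rasl11b were both highest at CT4, with CT22 between CT16 and CT4. With either CT16 library left out, 0 genes passed as higher than CT16, and without the second CT22 library 6 did. Of the receptors, Vipr2 and Prokr2 exceeded CT16 by 0.67 and 0.77 on the log2 scale and CT4 by 1.1 and 0.88, without passing the adjusted test.

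Intron reads, which can come from unspliced RNA, were compared in the same way after summing the introns of each gene. Of 12252 genes with at least 10 intron reads in at least 2 libraries, 646 were above at CT22 (5.27%) and 379 below (3.09%), and edgeR called 1 higher (0.00816%), Prokr2, and 0 lower (0%), with 892 genes at an unadjusted p under 0.05. The split depended on scaling, since TMM within the intron table gave 508 above and 545 below. DESeq2 called 3 higher and 1 lower. Of 320 genes above in gene reads and tested here, 37 were also above in introns (11.6%, where 5.3% of all genes tested in both were above) and 1 was below, and of 344 below in gene reads 28 were also below (8.14%, against 3.08%) and 11 were above. This set of introns is not free of exons: 27.1% of the introns kept, holding 63.8% of their reads, overlapped an exon in the authors' exon table. For Prokr2, 99.9% of the intron reads lay in a single intron that overlaps a listed exon, and they numbered 108 per 100 gene reads. That call therefore cannot be told apart from exon reads, and the same holds for Cxcl12, a chemokine gene whose intron log2 difference was 0.92, and 98.4% of whose intron reads lay in introns that overlap exons.

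With introns that overlap no listed exon, a choice made after seeing the data, 10252 genes were tested, 559 were above (5.45%) and 302 below (2.95%), and edgeR called 0 higher (0%) and 0 lower (0%), with 638 at an unadjusted p under 0.05. DESeq2 was not run on them. Of 269 genes above in gene reads and tested here, 24 were also above in introns (8.92%, where 5.45% of all genes tested in both were above) and 2 were below. Of 289 genes below in gene reads, 18 were also below (6.23%, against 2.95% of all) and 12 were above. Introns and gene reads thus mostly did not stand apart together. Those that did, with a mean of at least 50 intron reads, numbered 10 in each direction.

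Npas2 was the core clock gene above at both levels. Its exon-free intron reads were at 7.61 and 6.27 CPM at CT22, 4.76 and 5.4 at CT4, 3.55 and 1.98 at CT10, and 6.21 and 4.65 at CT16, with CT22 above all others but with the second CT22 library close to the first-cycle CT16 library. The intron log2 difference was 0.71 ± 0.27 (SE; edgeR adjusted p = 0.673). Gm129 was below at both levels on 2 to 24 intron reads a library, a depth at which small differences cannot be seen. Vipr2 introns were at 8.95 and 17 CPM at CT22, 5.11 and 8.73 at CT4, 5.78 and 5.84 at CT10, and 9.31 and 6.89 at CT16, and 1 CT16 library exceeded the lower CT22 library, so the receptor was not above in them.

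For Per2, introns and gene reads gave the night times in a different order. Exon-free introns of Per2 were at 9.84 and 9.27 CPM at CT22, 13.9 and 14.8 at CT4, 14.2 and 18.3 at CT10, and 7.57 and 8.14 at CT16, so that CT16 was lowest and both CT22 libraries exceeded both CT16 libraries, the reverse of the Per2 gene reads. Introns of Per1 were at 6.18 and 6.09 CPM at CT22, 14.3 and 14.1 at CT4, 10.5 and 16.7 at CT10, and 4.65 and 7.87 at CT16, and there CT22 lay inside the range of CT16. Introns of Dbp were at 3.67 and 4.91 CPM at CT22, 7.0 and 8.82 at CT4, 10.4 and 7.19 at CT10, and 3.01 and 4.02 at CT16, with CT16 and CT22 overlapping. In all 3 genes both CT4 libraries lay above both CT22 libraries in introns as in gene reads. The reversal in Per2 was not tested as an interaction.

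**Figure D4:**
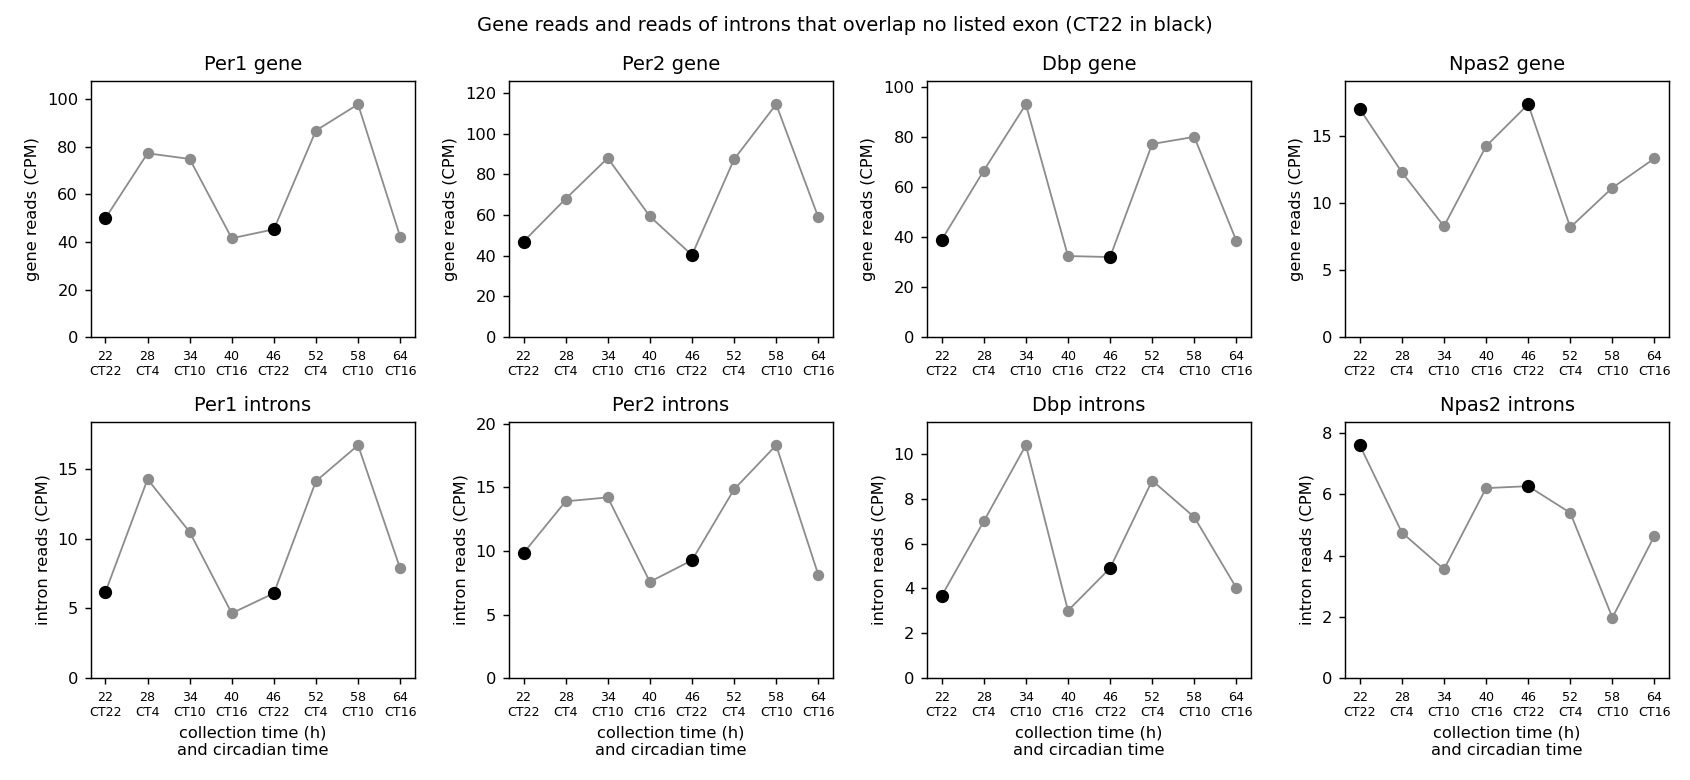
Upper row: gene reads (CPM) of Per1, Per2, Dbp and Npas2. Lower row: reads of their introns that overlap no listed exon (CPM), both by hour of collection and circadian time, with CT22 in black and y axes from 0; the CT22 points of Per2 are the lowest in gene reads but lie over the CT16 points in introns.

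Other genes that stood apart at both levels had modest differences in gene reads. Srgap3, a GTPase-activating protein of neurons, was at 392 and 434 CPM in gene reads at CT22 against 288 to 391 CPM, and its exon-free introns at 19 and 19.7 CPM against 6.17 to 18 CPM. Prkra, an activator of the kinase PKR, was at 44.8 and 39.7 CPM against 34 to 39.1 CPM, and Tln2, a talin, at 130.2 and 139 CPM against 87.5 to 129 CPM. Below at both levels were Ctsf, a lysosomal cathepsin, at 53.1 and 50.7 CPM against 53.4 to 69.1 CPM, and Rpn1, a subunit of the oligosaccharyltransferase, at 163 and 158 CPM against 168 to 183 CPM. Ift52, Bmp1 and Emd stood apart in the full intron set but were not so, or were not tested, without exon overlap.

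Immediate-early genes, which neurons switch on within minutes of strong input, were mostly higher by sign at CT22. Of 22 tested members, 20 were higher (52.8% of all tested genes), 2 were above all other libraries (3.04% of all), 0 were below, and the median log2 difference was 0.44. Fos was at 27.2 and 19.5 CPM at CT22, 14.5 and 14.3 at CT4, 10.6 and 17.1 at CT10, and 6.39 and 13.5 at CT16, with both CT22 libraries above the rest and CT16 lowest in the first cycle (log2 difference 0.90 ± 0.24, edgeR adjusted p = 0.709). Npas4 was at 18 and 16.9 CPM against 9.77 to 16.7 CPM, a margin of 1.01-fold. Egr1 was at 41 and 25.9 CPM at CT22, 26.2 and 16.9 at CT4, 21.8 and 30.4 at CT10, and 15.9 and 18.2 at CT16, where the second CT22 library lay among the others.

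The first CT22 library carried much of this list. Jund was at 66 and 16.4 CPM at CT22 against 11.2 to 21.2 CPM, and so was high in that library alone. Without the first CT22 library the median of the list was 0.11, and without the second it was 0.46; for Fos the differences were 0.63 and 1.12. This is also the library that held pituitary transcripts, and the highest of the 8 in summed markers of telencephalic neurons (78.9 CPM, with 33.4 in the second CT22 library and 28.1 to 68.5 in the others) and of magnocellular neurons (218 CPM, with 129.8 and 106 to 176). The ribosomal protein genes Rpl13 (191 and 99.6 CPM at CT22) and Rps2 (268 and 138 CPM) were likewise high in it alone and lower than the other times without it. The part of these other tissues' transcripts in the levels of the list was not tested.

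Among genes with a mean of at least 5 CPM, the 10 widest gaps above covered genes of diverse roles. 7SK had the widest, 1.74-fold, at 11.5 and 9.81 CPM against 1.89 to 5.65 CPM; it is a short RNA with many genomic copies that lacks a polyA tail, so its counts are uncertain (log2 difference 1.60 ± 0.32, edgeR adjusted p = 0.193). Tpbg, a membrane glycoprotein, was at 21.4 and 21.7 CPM against 13.7 to 16.3 CPM. Arl6ip6 was at 34.1 and 29.99 CPM against 12.2 to 23.5 CPM. Fam43a was at 43.3 and 39.1 CPM at CT22, 16.2 and 26.2 at CT4, 20.3 and 22.7 at CT10, and 31.8 and 28.4 at CT16, with a log2 difference of 0.78 ± 0.16 (edgeR adjusted p = 0.193) and an adjusted p of 0.0304 by DESeq2 (from 7.62e-05 to 0.999 over all alternatives). Grin2c, an NMDA receptor subunit, was at 51.1 and 61.3 CPM at CT22, 40.5 and 40.7 at CT4, 31.2 and 41.6 at CT10, and 40.7 and 39.4 at CT16, and its CT22 libraries did not overlap the rest. The remaining genes named by gap were Angptl4, an inhibitor of lipoprotein lipase, Pole4, a subunit of DNA polymerase epsilon, Bbs10, Zfp784 and Prokr2, with gaps of 1.23 to 1.26-fold.

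The widest gaps below included Per2 (1.25-fold) and otherwise genes of low level. Nprl2, a subunit of the GATOR complex that restrains mTORC signalling, was at 27.1 and 26.4 CPM against 34.6 to 42.7 CPM, with a gap of 1.27-fold. The metabolic enzymes Sord (22.7 and 22.3 CPM against 27.3 to 31.2), Aox1 (7.52 and 8.0 against 9.7 to 12.3) and Coq6 (17.8 and 19.1 against 23.4 to 25.5) were below by 1.2 to 1.22-fold gaps. Zfp488, a transcription factor of oligodendrocytes, Accn4, of the acid-sensing channel family, and the transcripts AI429214 and AI854517 were also among the 10. No gene named here passed an adjusted p of 0.05 by edgeR in the contrast with the other times. Zfp784, Tpbg, Accn4 and Coq6 overlap another gene, as do Tef, Dbp, Rbm3, Six6, Jund, Rps2 and Hnrnpd, in the authors' coordinates, and the strand setting of the counting is not given in the sources used here.

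Beyond these groups, most lists of cellular function had medians near that of all genes (0.01), with the heat shock list farther from it. Of 22 heat shock genes, 20 were higher by sign (52.8% of all tested genes) with a median of 0.15. At an unadjusted edgeR p under 0.05, 4 of them were higher (3.06% of all), but 0 were above all other libraries. Lists described earlier held more such genes. By the same measure 9 of 18 SCN peptide and receptor genes, 8 of 22 immediate-early genes and 5 of 14 SCN identity genes were higher. Of 20 core clock genes, 8 were lower (1.72% of all) and 2 higher. Dnajb1, a co-chaperone, was at 87.7 and 91.6 CPM at CT22, 62.8 and 52.4 at CT4, 61 and 60.1 at CT10, and 117 and 87.2 at CT16. Of 19 glycolysis genes, 17 were lower by sign (47.2% of all tested genes) with a median of -0.07. Ldha, lactate dehydrogenase A, was below at 164.1 and 166.1 CPM against 166.3 to 229.1 CPM. Of 30 cytosolic ribosomal protein genes, 23 were lower with a median of -0.07, and Rps3 was below. Of 22 genes of oxidative phosphorylation, 15 were lower with a median of -0.03, and Ndufa4 was below. Without the first and the second CT22 library the medians were -0.16 and -0.01 for the ribosomal list and -0.02 and -0.05 for oxidative phosphorylation. With 3.04% of genes above and 2.71% below by the criterion, 1 such gene in a list of about 20 is near the background.

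Membrane excitability genes held scattered members. Of 25 potassium channel genes, 21 were higher by sign (52.8% of all tested genes). Kcnma1, the BK channel that shapes the nightly fall of SCN firing, was above at 7.25 and 6.82 CPM at CT22, 5.2 and 3.96 at CT4, 3.02 and 2.78 at CT10, and 3.65 and 5.37 at CT16. Kcnn3 and Kcnt1 of that list were below, where 3.04% of all genes were above and 2.71% below. The median of that list was 0.06, and it was -0.000581 and 0.08 without the first and the second CT22 library. Of 24 sodium, calcium and leak channel genes, Cacna1e, an R-type calcium channel, was above at 124 and 131 CPM against 90.5 to 122 CPM. Of 22 glutamate receptor genes Grin2c was above and 0 were below. Of 24 genes of GABA signalling and 26 of cAMP and CREB signalling, 0 were above and 0 below.

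The remaining lists gave few members that stood apart, where 3.04% of all genes were above and 2.71% below. Cyp51 and Hsd17b7, enzymes of cholesterol synthesis, were above, at 140.2 and 134 CPM against 110.1 to 121 CPM and 19.9 and 18.1 CPM against 9.68 to 16.1 CPM, in a list of 21 with a median of 0.06 (0.03 and 0.06 without the first and the second CT22 library). The RNA-binding genes Hnrnpd and Hnrnpc were above and Rbm3 below, of 20. Ddit4, a stress-responsive inhibitor of mTORC signalling, was above among 15 glucocorticoid-responsive genes, and Dyrk1a, a kinase that acts on clock proteins, among 18 clock modifiers. For 20 genes of endoplasmic reticulum folding and 17 SR splicing factors, 0 were above and 0 below. Of the cell type markers, Esam, an endothelial adhesion gene, was below at 10.2 and 8.36 CPM against 10.3 to 15.5 CPM. The median of the 8 SCN neuron markers was 0.35 (0.14 without the second CT22 library), and some other marker lists had medians as far from 0 or farther. The medians were 3.46 for pituitary (-0.44 without the first CT22 library), 0.91 for telencephalic neurons (0.13), 0.31 for magnocellular neurons (-0.06), 0.41 for blood and 0.22 for meninges. The pituitary median rests on 3 tested genes, and those of telencephalic neurons, magnocellular neurons and blood on 5 each. Mural, ependymal and tanycyte markers had medians of -0.27, -0.18 and -0.18, arcuate neuron markers (4 tested) -0.14 and choroid plexus markers 0.19. Some of these changed sign with the CT22 library left out. Without the first and the second, the medians were 0.40 and -0.01 for meninges, -0.22 and 0.03 for tanycytes, and -0.999 and 0.39 for arcuate neurons. Those of oligodendrocytes and their precursors, astrocytes, microglia, endothelium and thalamic neurons lay between -0.05 and 0.04.

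**Figure D5:**
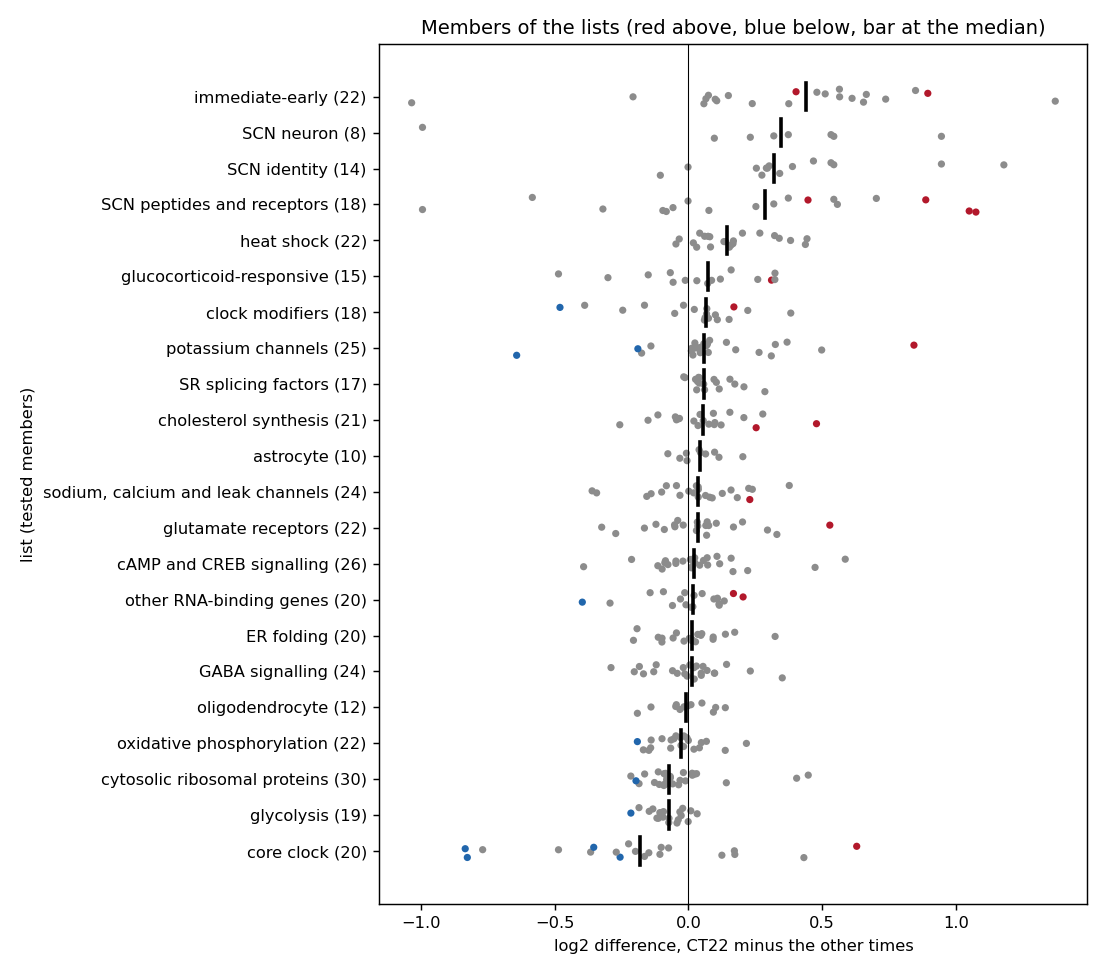
Log2 difference of CT22 minus the mean of the other times (x axis) for every tested member of 19 pathway lists and 3 marker lists (y axis, with the number of tested members). Red members were above all other libraries at CT22, blue members below, black bars are list medians, and the lists run from the core clock at the bottom (median -0.18) to the immediate-early genes at the top (median 0.44).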

How the data were processed

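Polyadenylated RNA of the SCN was sequenced in 8 libraries with a stranded kit, per the labels' protocols. The submitters' processing notes name the aligner STAR 2.3.0e and the build mm9. How reads were counted, on which strand setting, and how all libraries came to nearly equal totals is not given in the sources used here. The authors deposited counts of sense reads for 20741 genes, 176269 introns and 292239 exons. Those for genes and introns were tested, exons lent only their coordinates, and antisense and junction counts were not used here.

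Genes with at least 10 reads in at least 2 libraries were fitted with edgeR 4.0.16 (R 4.3.3, limma 3.58.1): TMM scaling, a mean for each circadian time, 4 residual degrees of freedom, and quasi-likelihood tests of CT22 against the mean of the other times and against each of them, with Benjamini-Hochberg adjustment over all genes. All 8 libraries entered the fit. CPM values were scaled by TMM. Of the introns, 129788 that carry 1 gene symbol and overlap no other kept intron of that gene were summed over 15643 genes. Their sums were scaled by the library sizes of the genes. DESeq2 1.42.0, other scalings and filters, the cycle or the oligodendrocyte markers as a term, and leaving out each library were the alternatives. On counts simulated with the same spread for all genes, the test found 20 of 50 genes changed 1.5-fold and 50 of 50 changed 2-fold. Spread in the real counts differs between genes, so these shares do not carry over to them.

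Members and lists were chosen with earlier results of these data known. Of 516 list symbols 514 were matched, 5 by a second name, and the table of gene names held 19628 of the gene IDs. Named genes are those past the adjusted threshold, up to 10 in each direction with the widest gap at a mean of at least 5 CPM, the core clock genes, up to 3 members of each other pathway list with the lowest p and all its members that stood apart, and up to 5 in each direction that stood apart in gene and intron reads. Promoter sequences are from RefSeq (GRCm38.p6), matched by Ensembl gene ID and, where that gave none, by symbol. A gene among the widest gaps below is not reported here.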

Additional observations from a re-analysis of the deposited data

How the results depend on the processing

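The labels give no replicate numbers; the fit with the 24 h cycle as a term is a block by cycle (a replicate block), which called 3 genes higher and 0 lower than the other times. Of 116 named results with a test, 109 kept their direction under every alternative. Those that turned did so when a CT22 library was left out. From without CT22 replicate 1 to without CT22 replicate 2, the log2 differences went from -0.00607 to 0.404 for Cox5a, -0.104 to 0.843 for Rpl13, -0.318 to 0.763 for Sdf2l1, 0.126 to -0.499 for Rora, -0.0844 to 0.485 for Slc32a1, -0.161 to 0.806 for Rps2 and 0.362 to -0.0592 for Rorb. The cause was not tested in any of these.

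Genes higher than the other times by edgeR numbered 77 without the filter on low counts, 12 by DESeq2, 3 with the cycle as a term and 0 to 16 with each library left out (16 without CT22 replicate 2); lower genes numbered 7 and 2 by the first pair of settings and 0 with each library left out. For introns, higher genes numbered 22 without a filter, 3 by DESeq2, with the cycle or with the oligodendrocyte term, and 0 with RLE scaling, with 2 plain groups and without exon overlap (0 to 5 with each library left out); lower genes numbered 2, 1 by DESeq2 and 1 with the oligodendrocyte term (0 to 1). Against CT16, 45 were higher and 5 lower without a filter, 3 higher by DESeq2, and 0 to 6 higher with each library left out. Against CT4, 158 were higher and 27 lower without a filter, 14 and 6 by DESeq2, 3 and 2 with the cycle, and 0 to 20 and 1 to 2 with each library left out. Against CT10, 112 and 74 were called without a filter, 77 and 22 by DESeq2, and 0 to 5 and 2 to 6 with each library left out.

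Leaving out a library, a choice made after seeing the data, gave 551 to 2086 genes above and 522 to 1846 below, 734 to 2011 and 464 to 1522 in introns, and 45 to 450 and 40 to 320 at both levels; the highest values came from leaving out a CT22 library, where the criterion rests on the other CT22 library alone. A gap of at least 1.2-fold left 50 above and 36 below. At both levels 21 were above with at least 50 intron reads and 24 without exon overlap, and 45 were below with TMM within introns and 18 without exon overlap. With 2 libraries at CT22 and 11123610 or more gene reads each, 0 genes passed the edgeR test against the other times. Folds among the genes that stood apart ran up to 6.96 above and down to 0.0862 below, and 7SK had a log2 difference of 1.60.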

Other observations

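Introns that overlap no listed exon set apart some genes whose gene reads did not stand apart at CT22. They were picked for description after their values were seen, from those with a wide gap and a mean above 5 CPM in introns. Intron reads of Ephb1, an ephrin receptor, were at 8.41 and 8.09 CPM at CT22 (94 and 89 reads) against 2.56 to 5.1 CPM in the other 6 libraries, with a log2 difference of 1.01 ± 0.27 (SE; edgeR adjusted p = 0.478). Its gene reads were at 76.5 and 67.1 CPM against 64.1 to 74.8 CPM, so the groups overlapped. Ptprg, a receptor tyrosine phosphatase, had intron reads at 10.6 and 9.72 CPM against 3.06 to 7.11 CPM and gene reads at 124 and 118 CPM against 94.6 to 134 CPM. Fkbp4, a co-chaperone of steroid receptors, had intron reads at 9.22 and 8.09 CPM against 3.14 to 6.17 CPM and gene reads at 184 and 153 CPM against 121 to 198 CPM. On the lower side, Dhx38, a splicing helicase, had intron reads at 3.94 and 3.73 CPM against 5.42 to 8.49 CPM and gene reads at 37.1 and 27.8 CPM against 31.4 to 39.9 CPM. The edgeR test over all genes called 0 of these introns at an adjusted p of 0.05, where 638 genes had an unadjusted p under 0.05. The difference between intron and gene reads was not tested.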
